A study of Mus musculus with 12 samples.

Results

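The transcripts described here are those of 8 genes of cholesterol synthesis and its control, Hmgcs1, Idi1, Fdps, Fdft1, Sqle, Lss, Srebf2 and Insig1, in mouse small intestine after loss of Apc, p53 or both. Every probe set on the array whose gene symbol is 1 of these 8 was taken, which gave 20 of the 45101 probe sets. Of these, 17 were named by the probe table used here and 3 by the array's own description. There were 12 mice in 4 genotypes of 3, with intestinal RNA of each mouse on an Affymetrix array of its own. The genotypes were Cre+Apc+/+p53+/+ (control), Cre+Apcfl/flp53+/+ (called Apc-deficient), Cre+Apc+/+p53-/- (called p53-deficient) and Cre+Apcfl/flp53-/- (called double-deficient). All of them carried the Ah-cre transgene, a Cre recombinase under an inducible Cyp1a promoter. All were induced with β-naphthoflavone at 80 mg/kg and sampled at day 5, and the labels give 3 injections in 1 day where the methods give daily injections. The comparison asks whether losing p53 changes the transcript response to losing Apc. The p53 alleles were lost in the whole animal, while Apc was deleted only in cells where Cre was active. Because whole tissue was measured, fewer cells of a type and less RNA per cell cannot be told apart in any difference below.

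Cells make cholesterol from acetyl-CoA through the mevalonate pathway, which yields isoprenoid units, then squalene and finally sterols. The transcription factor SREBP2, the product of Srebf2, switches on most of these enzymes when sterols are scarce, while INSIG1 holds SREBP2 and its escort SCAP in the endoplasmic reticulum when sterols are plentiful. The Insig1 and Srebf2 genes are themselves SREBP targets. The small intestine both makes cholesterol and absorbs it from the diet and bile, and dividing cells need sterols and isoprenoids for new membranes.

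The p53 transcript, read by the probe set 1426538_a_at, had a scaled signal of 190 to 274 on the 3 control arrays and was undetected on all arrays of p53-deficient and double-deficient mice, at 3.53 to 15.1. Other p53 probe sets stayed detectable without p53. Probe set 1427739_a_at read 313 to 428 in control, 121 to 160 in p53-deficient (detected on 2 of 3 arrays) and 169 to 241 in double-deficient intestines (detected on all 3), below every control array in both. Probe set 1438808_at was undetected in control (18.3 to 28.3) and read 58.3 to 84.2 in double-deficient intestines, where it was detected on 2 arrays. Whether these probes lie in the deleted part was not analysed here. Scaled signal is the deposited linear signal after every array was brought to 1 geometric mean, and a probe set counted as detected at a detection p under 0.05. The number of probe sets detected lay between 18388 and 19416 in control and between 20508 and 23213 on the other arrays. Transcripts of exocrine pancreas were high on 2 arrays, with a median log2 signal of 12.67 on control d5wt_474u and 11.28 on double-deficient gap429 over 10 markers, against 4.48 to 5.94 on the other 10. Smooth muscle markers were low on control d5wt_110u and p53-deficient GAP940 (7.33 and 7.78, against 8.73 to 9.88 elsewhere). The 9 enterocyte markers lay at 12.39 to 12.55 in control, 11.09 to 12.10 in Apc-deficient, 12.78 to 13.19 in p53-deficient and 11.34 to 11.84 in double-deficient intestines, which are the defining markers of the labelled tissue. The 9 proliferation markers lay at 9.13 to 9.93, 10.75 to 11.00, 9.32 to 10.25 and 10.47 to 10.74 in the same order. In the names of the deposited columns each genotype has a numeric code of its own, and 1 letter code covers control and Apc-deficient arrays and another the p53-deficient and double-deficient arrays. The meaning of these codes was not found in the labels or the methods. If the letters mark hybridisation batches, a batch effect and the loss of p53 cannot be told apart, and if the numbers do, the same holds for batch and genotype in every comparison, that of Apc-deficient with control included.

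On the mouse build GRCm38.p6, Hmgcs1 (chromosome 13, 119690351 to 119708260) and Idi1 (chromosome 13, 8885606 to 8892396) share a chromosome, and Sqle (chromosome 15, 59315092 to 59331193) and Srebf2 (chromosome 15, 82147269 to 82205379) share another. Fdps is on chromosome 3, Insig1 on 5, Lss on 10 and Fdft1 on 14. RefSeq promoter sequences on this build were matched for 5 of the 8 genes, Hmgcs1, Idi1, Lss, Srebf2 and Insig1. The 250 bases before the transcription start of 3 of them are shown. Hmgcs1 and Idi1 were called higher after Apc loss, and Insig1, a target of the same factor, was not called. Lss and Srebf2 also had a probe set called higher, and their promoters were searched in the same way but are not shown. Capitals mark matches on either strand to CACCCCAC (the core of a sterol response element), CCAAT (the NF-Y site, which reads ATTGG on the other strand), GGGCGG (the Sp1 site, which reads CCGCCC on the other strand) and CACGTG (an E-box).
Hmgcs1, chr13:119690101-119690350, plus strand: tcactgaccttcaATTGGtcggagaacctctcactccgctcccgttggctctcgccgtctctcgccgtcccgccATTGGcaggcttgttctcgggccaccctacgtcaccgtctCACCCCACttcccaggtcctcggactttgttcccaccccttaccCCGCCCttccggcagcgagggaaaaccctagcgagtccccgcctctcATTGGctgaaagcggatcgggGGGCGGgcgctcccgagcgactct
Idi1, chr13:8885356-8885605, plus strand: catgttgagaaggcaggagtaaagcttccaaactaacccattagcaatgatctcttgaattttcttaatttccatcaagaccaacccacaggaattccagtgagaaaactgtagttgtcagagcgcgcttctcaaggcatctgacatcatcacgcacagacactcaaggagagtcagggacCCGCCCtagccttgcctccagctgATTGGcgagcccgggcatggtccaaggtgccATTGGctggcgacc
Insig1, chr5:28071162-28071411, plus strand: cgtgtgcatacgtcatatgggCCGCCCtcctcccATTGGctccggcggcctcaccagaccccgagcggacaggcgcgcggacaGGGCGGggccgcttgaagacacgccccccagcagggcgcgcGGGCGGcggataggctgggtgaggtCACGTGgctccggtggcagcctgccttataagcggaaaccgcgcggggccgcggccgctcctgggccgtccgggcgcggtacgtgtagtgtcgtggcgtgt

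The sterol response core CACCCCAC was found in 1 of the 5 promoters, that of Hmgcs1, at 136 bases before the start, and it was present in 2.58% of 32851 RefSeq promoters of the same length. A longer form, with AT before the core, was found in 0 of the 5 and in 0.0731% of all. CCAAT was found in all 5, against 33.8% of all promoters, and GGGCGG also in all 5, against 32.7%. In Hmgcs1 CCAAT occurred 3 times, at 237, 176 and 45 bases before the start, and in Idi1 at 45 and 14. CACGTG was found in the Insig1 promoter alone, against 6.02% of all. These matches describe the letters of the sequence and were not measured as binding.

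Of the 20 probe sets, 17 passed the screen (1 or more arrays with a detection p below 0.2) and were tested. The 3 that failed it, 1 for Fdps and 2 for Fdft1, were the ones named by description and were undetected on all 12 arrays. The tested probe sets comprised 5 for Hmgcs1, 3 for Lss, 2 each for Idi1, Fdft1 and Srebf2, and 1 each for Fdps, Sqle and Insig1. Of the Hmgcs1 probe sets 4 were designed on 1 sequence accession, as were both for Idi1 and both for Srebf2, so probe sets of a gene are repeat readings of 1 transcript in the same mice and not further replicates. A gene is represented by its brightest probe set on average, and one marked as matching several transcripts was taken only where no other existed.

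When Apc was lost alone, at least 1 probe set rose for 5 of the 8 genes, namely the synthesis enzymes Hmgcs1, Idi1, Fdft1 and Lss and the transcription factor Srebf2, with log2 differences between 0.91 and 1.10 for the first 3 enzymes and Srebf2, while the called Lss probe set was undetected in control. Sqle had log2 0.94 and did not pass the test, and Fdps and Insig1 had differences of 0.07 and -0.04. With 1 limma model over all 4 genotypes and Benjamini-Hochberg adjustment over all 36336 probe sets tested, 6 of the 17 probe sets were higher at an adjusted p under 0.05 and 0 were lower, and 12 had an unadjusted p under 0.05. Across the whole array 15.7% of probe sets were called higher and 10.7% lower in this comparison, and 14446 of 36336 had an unadjusted p under 0.05. Counting 1 probe set a gene, 3 of 8 genes were called higher, against 18.8% of 15129 genes called higher and 12.1% lower. The median log2 difference of the 17 was 0.82, against 0.00 over all probe sets. In 11 of the 17, from 6 genes, every Apc-deficient array lay above every control array, which held for 23.4% of all probe sets, and 0 lay wholly below, against 19.3%.

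**Figure D1:**
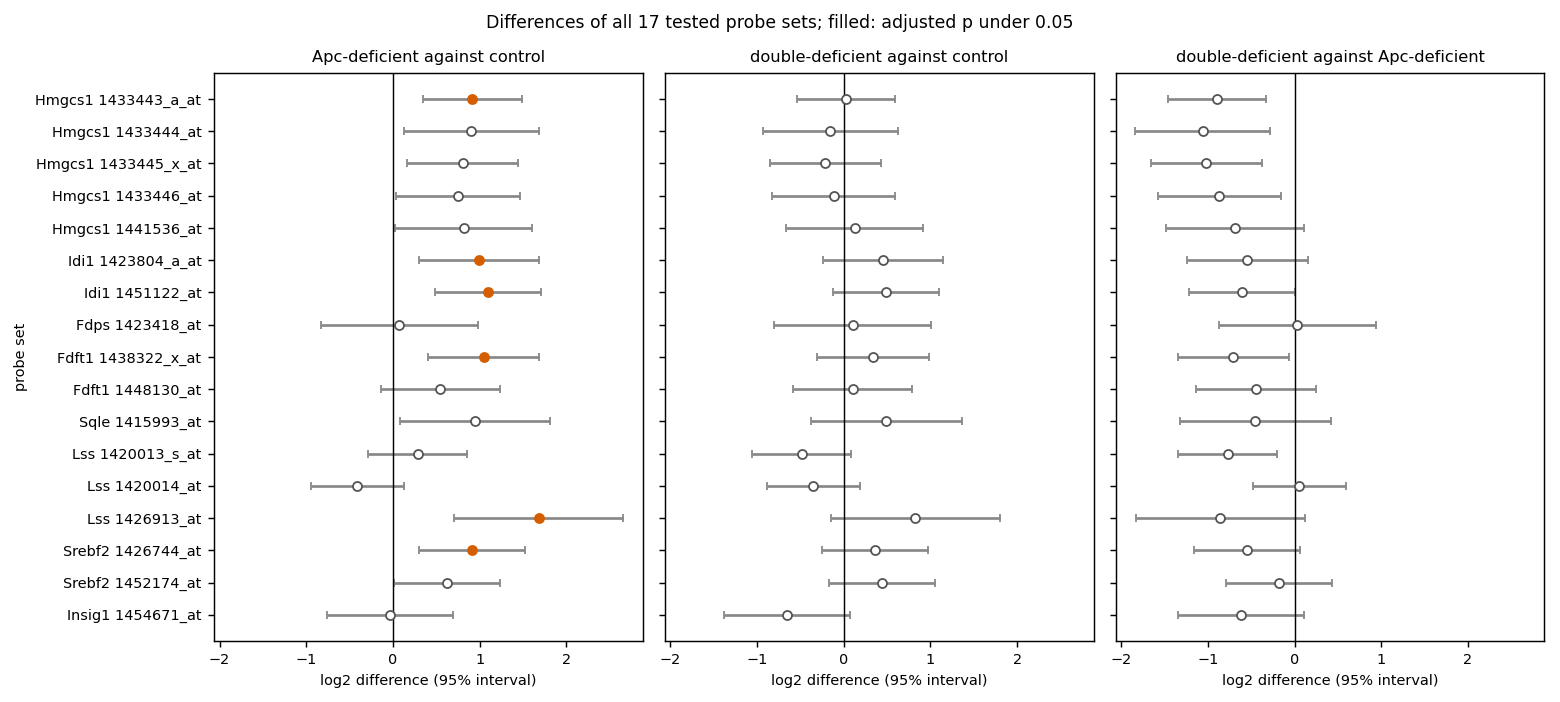
Log2 difference (x axis) with its 95% interval for each of the 17 tested probe sets (y axis) in 3 comparisons, from limma. Filled points have an adjusted p under 0.05. In Apc-deficient against control 6 points are filled and 15 lie right of 0, in double-deficient against control 0 are filled, and in double-deficient against Apc-deficient 15 lie left of 0 with 0 filled.

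These calls rested on few arrays and on the scaling. The count of 6 was 0 without control d5wt_110u, 1 without control d5wt_474u and 3 without Apc-deficient D5fl_131u, and it was 0 without both arrays that held pancreas transcripts. It was 3 after quantile normalisation and 1 in the authors' normalised table, whereas without any scaling, where the median of all probe sets moved to -0.67, 1 probe set was called and it was lower. All the log2 differences given below are therefore relative to the mean of all probe sets on an array.

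Hmgcs1 encodes HMG-CoA synthase, which makes the substrate of the rate-limiting step of the pathway. Its probe set 1433443_a_at had scaled signals of 2169, 3244 and 2164 on the control arrays and 4472, 4652 and 4913 on the Apc-deficient arrays. On the p53-deficient arrays the values were 5640, 3500 and 3656, and on the double-deficient arrays 3146, 2351 and 2165. The control and double-deficient arrays occupied the same range, and both the Apc-deficient and the p53-deficient arrays lay wholly above it. Apc-deficient intestines were 1.89-fold above control (log2 0.92, SE 0.26, adjusted p = 0.025), p53-deficient intestines 1.68-fold above control (log2 0.75, adjusted p = 0.22) and double-deficient intestines at the control level (log2 0.02, 95% interval -0.54 to 0.59). Against Apc-deficient intestines the double-deficient ones were 1.85-fold lower (log2 -0.89, adjusted p = 0.13). The 3 other well detected probe sets of the gene had log2 differences of 0.75 to 0.90 in Apc-deficient against control (adjusted p = 0.063 to 0.11) and of -0.87 to -1.06 in double-deficient against Apc-deficient (adjusted p = 0.13 to 0.22). The fifth, 1441536_at, was undetected on every control array, and its ratio of Apc-deficient to control signals was 1.76 (95% interval of log2 0.02 to 1.61, adjusted p = 0.12).

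Idi1 encodes isopentenyl-diphosphate isomerase, which interconverts the isoprenoid building units. Its probe set 1451122_at read 1057, 1668 and 1215 in control and 2646, 2453 and 3245 in Apc-deficient intestines. The p53-deficient values were 2175, 1339 and 1444, and the double-deficient values 2322, 1825 and 1402. Only the Apc-deficient group lay clear of the others, with all 3 arrays above the highest of the other 9. The increase after Apc loss was 2.14-fold (log2 1.10, SE 0.28, adjusted p = 0.016), and the second probe set, 1423804_a_at, gave log2 0.99 (adjusted p = 0.040). Double-deficient intestines lay between the control and the Apc-deficient group, at log2 0.49 above control (adjusted p = 0.24) and -0.61 against Apc-deficient (adjusted p = 0.30).

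Fdps encodes farnesyl diphosphate synthase, which joins these units into the branch point for sterols, ubiquinone and prenylated proteins. Its single tested probe set, 1423418_at, read 894, 2304 and 1576 in control and 1509, 2398 and 1046 in Apc-deficient intestines. It read 2362, 1213 and 1151 in p53-deficient and 1557, 1654 and 1568 in double-deficient intestines. The 4 groups overlapped, and only the double-deficient arrays were alike. The log2 difference of Apc-deficient against control was 0.07 with a 95% interval of -0.83 to 0.98 (adjusted p = 0.91), so changes within that interval are not excluded. Its sign turned under quantile normalisation, in the authors' normalised table and without scaling.

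Fdft1 encodes squalene synthase, the first enzyme committed to sterols. Probe set 1438322_x_at read 245, 507 and 371 in control, 632, 851 and 754 in Apc-deficient, 684, 412 and 451 in p53-deficient and 495, 445 and 421 in double-deficient intestines. Apc-deficient arrays lay above all control and double-deficient arrays. The increase over control was 2.06-fold (log2 1.05, SE 0.29, adjusted p = 0.024), and double-deficient intestines were 1.63-fold lower than Apc-deficient ones (log2 -0.71, adjusted p = 0.26). The suffix of this probe set marks probes that may match other transcripts. The second probe set, 1448130_at, read 789, 1111 and 542 in control and 954, 1546 and 1003 in Apc-deficient intestines, which overlapped. Its log2 difference was 0.55 (adjusted p = 0.22), and the sign turned without scaling.

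Sqle encodes squalene epoxidase, the oxygen-dependent step after squalene. Its signals were 503, 1346 and 860 in control and 1724, 1586 and 1517 in Apc-deficient intestines. They were 2100, 863 and 910 in p53-deficient and 1216, 1296 and 1029 in double-deficient intestines. Every Apc-deficient array was above every control and double-deficient array, and the p53-deficient group held both the highest value of the series and 2 near the middle of the control range. The Apc-deficient difference from control was log2 0.94 (95% interval 0.08 to 1.81, adjusted p = 0.099), and that between double-deficient and Apc-deficient intestines was -0.45 (adjusted p = 0.60).

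Lss encodes lanosterol synthase, which closes the sterol ring system. Probe set 1426913_at read 39.2, 86.5 and 76.4 in control, where it was undetected on all 3 arrays, and 371, 179 and 129 in Apc-deficient intestines. It read 159, 98.2 and 68.1 in p53-deficient and 130, 109 and 102 in double-deficient intestines. Both Apc-deficient and double-deficient arrays lay wholly above control. The fitted ratio to control was 3.20 in Apc-deficient intestines (95% interval of the log2 difference 0.70 to 2.66, adjusted p = 0.020). For double-deficient intestines the ratio was 1.77 and did not pass (95% interval of log2 -0.15 to 1.80, adjusted p = 0.22). The control signals, though undetected, lay above the lowest signal detected on all control arrays. A bound that raises them to that level therefore gave the fitted ratio itself. The first value is thus an estimate and not a lower limit. Probe sets of this gene disagreed. The brighter 1420013_s_at, which may match several transcripts, read 317, 486 and 440 in control, 581, 460 and 459 in Apc-deficient, 734, 429 and 481 in p53-deficient and 346, 273 and 262 in double-deficient intestines. There the double-deficient arrays lay below all Apc-deficient and all p53-deficient arrays, with log2 differences of -0.77 (adjusted p = 0.18) and -0.87 (adjusted p = 0.062), while Apc-deficient against control was 0.28 (adjusted p = 0.45). The third probe set, 1420014_at, was undetected on all 12 arrays.

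Srebf2 is the gene of the transcription factor itself. Probe set 1426744_at read 507, 608 and 458 in control, 858, 1523 and 720 in Apc-deficient, 555, 410 and 443 in p53-deficient and 602, 691 and 724 in double-deficient intestines. Apc-deficient arrays lay above all control arrays, and double-deficient arrays above all p53-deficient arrays. Apc-deficient intestines were 1.88-fold above control (log2 0.91, adjusted p = 0.034) and double-deficient intestines 1.44-fold above p53-deficient ones (log2 0.53, adjusted p = 0.27). Probe set 1452174_at read 466, 649 and 503 in control, 965, 1035 and 553 in Apc-deficient, 695, 595 and 472 in p53-deficient and 640, 832 and 715 in double-deficient intestines. Here the Apc-deficient arrays overlapped control through D5fl_131u, and the log2 difference was 0.62 (adjusted p = 0.12), turning to -0.05 without scaling.

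Insig1, the sterol-dependent anchor of SCAP and SREBP2, was highest on average in p53-deficient and lowest in double-deficient intestines. Its signals were 612, 689 and 548 in control, 563, 821 and 464 in Apc-deficient, 1367, 674 and 666 in p53-deficient and 524, 340 and 332 in double-deficient intestines. Control and Apc-deficient arrays shared a range, and the double-deficient arrays lay below all control and all p53-deficient arrays. Apc-deficient against control was log2 -0.04 (95% interval -0.77 to 0.69, adjusted p = 0.95). Double-deficient intestines were 2.18-fold below p53-deficient ones (log2 -1.12, SE 0.33, adjusted p = 0.059) and 1.58-fold below control (log2 -0.66, adjusted p = 0.19).

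**Figure D2:**
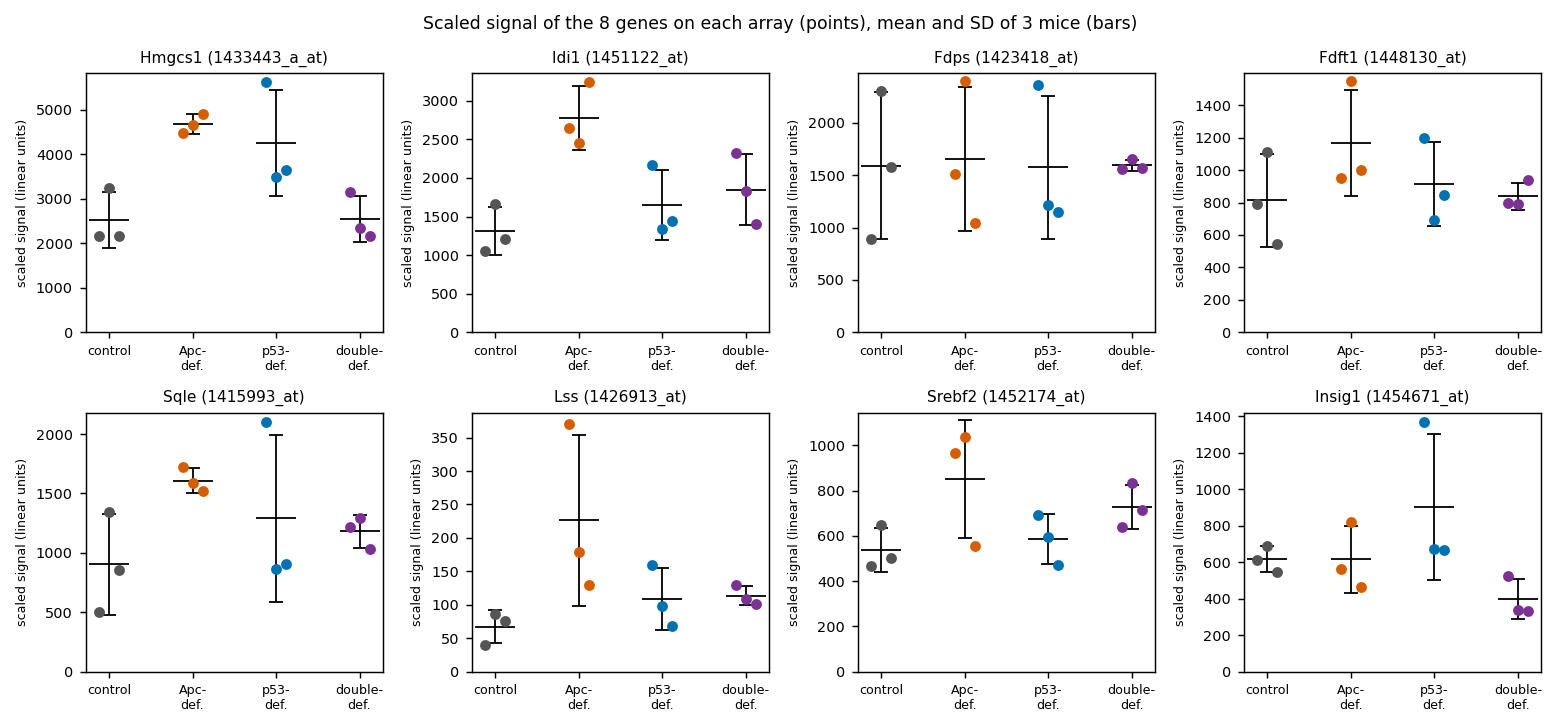
Scaled signal (linear units, y axis) of the 8 genes, 1 probe set each, on each array (points), with the mean and SD of 3 mice (bars), in control, Apc-deficient, p53-deficient and double-deficient intestines (x axis). Hmgcs1 and Sqle show the Apc-deficient arrays above control, Fdps shows overlapping groups, and 1 p53-deficient array, GAP901, is the highest of its group in every panel.

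In double-deficient intestines compared with control, 0 of the 17 probe sets were called and 0 had an unadjusted p under 0.05. Over all 36336 probe sets, 8.9% were called higher and 6.04% lower, and 12022 had an unadjusted p under 0.05. The median log2 difference of the 17 was 0.10. The groups did not overlap in 2 probe sets, 1426913_at of Lss upward and that of Insig1 downward, against 23% and 19.7% of all probe sets in these directions. Sqle was at log2 0.49 (95% interval -0.38 to 1.36) and Idi1 at 0.49 (-0.12 to 1.10), and these intervals still hold increases as large as those after loss of Apc alone. Since this comparison uses the same control arrays as that of Apc-deficient intestines, the values of the 2 comparisons are not independent.

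The direct comparison of double-deficient with Apc-deficient intestines tests the difference itself. It called 0 of the 17, against 0.204% of all probe sets called higher and 0.0908% lower. Of the 17, 6 had an unadjusted p under 0.05, against 6066 of all 36336 probe sets. Several of these 6 were repeat readings of Hmgcs1. With 1 probe set a gene, 1 of 8 genes had an unadjusted p under 0.05 and 7 of 8 were lower. In 15 of the 17 the double-deficient mean was lower, with a median log2 difference of -0.62 against -0.04 over all probe sets. In 11 of the 17, from 5 genes, all double-deficient arrays lay below all Apc-deficient arrays, which held for 12.5% of all probe sets, while 8.99% of all probe sets lay wholly above. The genes were Hmgcs1, Idi1, Fdft1, Sqle and Lss, all of them enzymes. Lss counted only through 1420013_s_at, which was not called after Apc loss. Its probe set called there, 1426913_at, overlapped (log2 -0.85, adjusted p = 0.36), as did the undetected 1420014_at. Fdps (log2 0.03), Insig1 (-0.62) and Srebf2 (-0.18 and -0.55) had overlapping groups. The Apc-deficient arrays enter both this comparison and that with control, so a high value there raises the one and lowers the other.

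In p53-deficient intestines compared with control 0 of the 17 were called, and 0.176% of all probe sets were called higher and 0.168% lower. An unadjusted p under 0.05 was found for 5597 of all 36336 probe sets and for 1 of the 17. That one was Hmgcs1 1433443_a_at, described above, which was also the only probe set without overlap, against 14.9% of all probe sets higher without overlap. In double-deficient compared with p53-deficient intestines 0 were called, against 4.62% higher and 4.45% lower over all probe sets. Here 9138 of all 36336 probe sets had an unadjusted p under 0.05, as did 3 of the 17. These were Insig1, 1420013_s_at of Lss and Hmgcs1 1433443_a_at (log2 -0.72, adjusted p = 0.11), all lower in the double-deficient group. The double-deficient arrays lay wholly lower in 4 probe sets and wholly higher in 1, for Srebf2, against 16.8% and 16.7% of all probe sets. The comparison shares no array with that of Apc-deficient and control intestines, in which Hmgcs1 was called higher.

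The interaction term asks whether the effect of Apc loss depended on p53. It called 0 of the 17, and only 0.00275% of all probe sets were called higher and 0.00826% lower. Of the 17, 9 had an unadjusted p under 0.05, against 5388 of all 36336 probe sets. Several of these 9 were repeat readings of Hmgcs1, and with 1 probe set a gene 4 of 8 genes had such a p. The count of 9 was 5 after quantile normalisation and 5 in the authors' normalised table. The term was negative in 15 of the 17, with a median of -0.97 against -0.06 over all probe sets. With 1 probe set a gene, Hmgcs1 had the lowest adjusted p, at log2 -1.64 (SE 0.36, adjusted p = 0.15), followed by Lss 1426913_at, undetected in control, at -1.53 (adjusted p = 0.30), Idi1 at -0.93 (adjusted p = 0.31), Insig1 at -1.09 (adjusted p = 0.32) and Sqle at -0.95 (adjusted p = 0.44). Fdps was at 0.02. Without scaling the median of all probe sets for this term was 0.97, and the values for Idi1, Fdft1, Sqle and Srebf2 1452174_at became positive.

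Averaged over both p53 states, Apc loss raised 3 of the 17 probe sets (17.6%) and lowered 0, against 17.7% and 13.9% of all. The share called higher was thus that of the whole array. The split was 2 higher and 1 lower after quantile normalisation and in the authors' table. In the main fit 6 of the 17 had an unadjusted p under 0.05, against 15692 of all 36336 probe sets. The 3 called were Srebf2 1426744_at (log2 0.72, adjusted p = 0.018), Idi1 1451122_at (log2 0.63, adjusted p = 0.031) and Lss 1426913_at (log2 0.91, adjusted p = 0.047, undetected in control). Hmgcs1 averaged 0.10 (adjusted p = 0.72), since its differences with and without p53 had opposite signs, and Insig1 -0.58 (adjusted p = 0.081). The count of 3 was 1 when any of 6 arrays was left out (d5wt_110u, d5wt_474u, gap346, gap397, GAP940 or GAP886) and 0 without d5wt_474u and gap429. The shares of all probe sets called with these arrays left out are not given here. Loss of p53 averaged over both Apc states called 0 of the 17, against 0.74% and 0.526% of all probe sets. Of the 17, 0 had an unadjusted p under 0.05, against 6392 of all 36336 probe sets.

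The 8 genes also varied together between mice of 1 genotype. Control d5wt_323u was the highest of the 3 control arrays for 8 of 8 genes, at 1.19 to 2.05 times the mean of the other 2 (median 1.54). GAP901 was the highest of the 3 p53-deficient arrays for 8 of 8, at 1.31 to 2.37 times (median 1.76). Sqle showed the widest gap on both arrays. In the Apc-deficient and double-deficient groups no array was highest for more than 4 of the 8. The proliferation markers were likewise highest in their group on these arrays, at a median log2 signal of 9.93 on d5wt_323u against 9.13 and 9.49, and of 10.25 on GAP901 against 9.32 and 9.99, and their part in the result was not tested. Enterocyte markers were highest of the group on GAP901 (13.19 against 13.01 and 12.78) but not on d5wt_323u (12.46 against 12.55 and 12.39). Leaving out both arrays, a setting chosen after the data were seen, gave 6 of the 17 for Apc loss averaged over p53 status. The share of all probe sets called in that setting is not given here, so the count is not read as a stronger result for these genes.

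**Figure D3:**
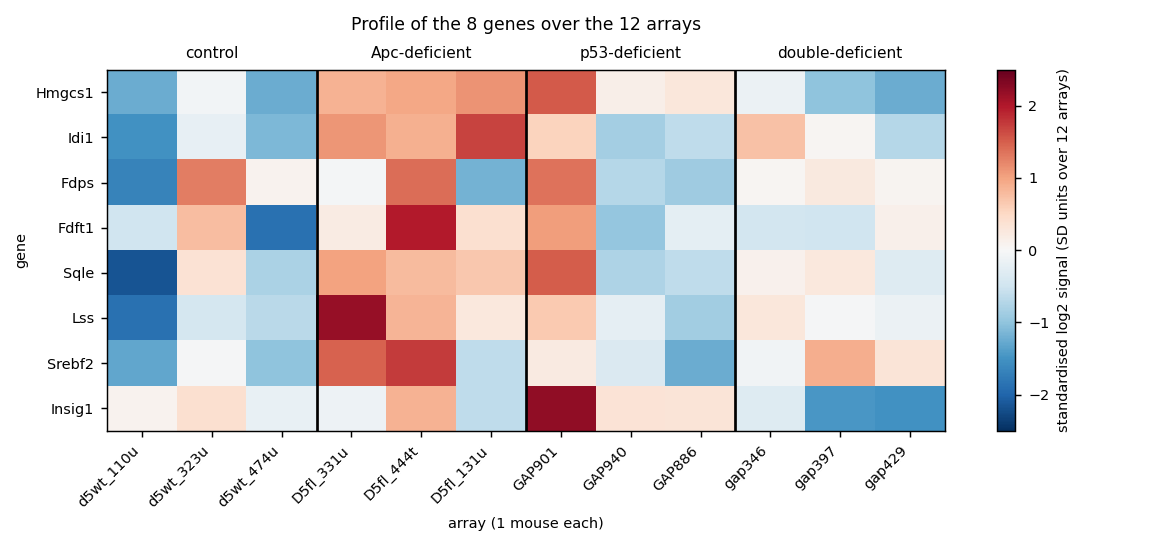
Log2 scaled signal of the 8 genes (rows, 1 probe set each), standardised over the 12 arrays (columns, 1 mouse each, grouped by genotype). The colour scale is in SD units. Control d5wt_323u and p53-deficient GAP901 are the highest of their groups for 8 of 8 genes, and Insig1 is low on the double-deficient arrays.

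Over the 12 arrays, 27 of the 28 pairs of the 8 genes were positively correlated, with Pearson's r from -0.00 to 0.84 and a median of 0.59. With the genotype means removed all 28 were positive, with a median of 0.59 and a range of 0.07 to 0.93. The highest value over all arrays was that of Idi1 with Sqle (0.84), and the lowest that of Srebf2 with Insig1. The pairs share arrays and the scaling of each array, so these values are a description. After Srebf2, Insig1 was least correlated with Idi1 (0.09) and Lss (0.12), and its highest value was with Hmgcs1 (0.64).

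The mean standardised profile of the 8 was then compared with 10467 other genes detected on at least 6 arrays. The 10 most alike were Mfn1 (r = 0.94), Ehd4, Cyp51, Arl1, Slc35a2, Lgals9, Fads2, Msmo1, Tmem39a and Pdk1 (0.88), over 12 arrays. Of these, 3 belong to the lists of related lipid genes. Cyp51 (r = 0.91) encodes lanosterol demethylase and Msmo1 (r = 0.89) sterol C4-methyl oxidase, both enzymes that act after Lss, and Fads2 (r = 0.89) encodes a fatty acid desaturase. Fads1 ranked 32nd (r = 0.84), Acly, the source of cytosolic acetyl-CoA, 48th (r = 0.83) and Ubxn8 61st (r = 0.81). The other enzymes of mevalonate and sterol synthesis spread from Lbr at rank 582 (r = 0.68) to Tm7sf2 at rank 8589 (r = -0.28). The other genes of fatty acid synthesis spread from Scd2 at rank 671 (r = 0.67) to Me1 at rank 8165 (r = -0.21). At the other end Abcg1, a sterol exporter, had r = -0.61 and Abca1, which loads cholesterol onto high-density lipoprotein, -0.48.

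Of 59 related genes in 5 lists, 48 had a named probe set that was tested, and the others are not analysed here. In Apc-deficient against control 11 were called higher and 7 lower, where 18.8% and 12.1% of all genes were called, so the lists as a whole lay near the background. In double-deficient against p53-deficient intestines 2 higher and 6 lower, where 4.83% and 6.46% of all genes were called. Averaged over p53 status 9 were higher and 9 lower, against 19.6% and 17% of all genes, and this split was 6 and 15 after quantile normalisation, 8 and 12 in the authors' table and 3 and 10 without scaling. Among 14 further enzymes of mevalonate and sterol synthesis 1 was called, Lbr, a sterol reductase that is also a protein of the nuclear envelope, at 1535 ± 142 in control and 4262 ± 353 in Apc-deficient intestines (mean ± SD, n = 3, log2 1.47, adjusted p = 0.0024). Cyp51 was at log2 1.01 (adjusted p = 0.092) and Msmo1 at 0.68 (adjusted p = 0.13). The other 11 lay between -0.31 and 0.53, and the list's median was 0.21 against 0.05 over all genes.

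Among 9 genes that control SREBP, 4 were called higher in Apc-deficient intestines and 0 lower, against 18.8% and 12.1% of all genes. They were Scap, the sterol-sensing escort (504 ± 184 in control, 1121 ± 123 in Apc-deficient, log2 1.22, adjusted p = 0.015), Mbtps2, the protease that releases SREBP from the Golgi membrane (256 ± 32.9 and 751 ± 220, log2 1.52, adjusted p = 0.0024), Srebf1, the gene of the fatty acid branch (513 ± 45.1 and 911 ± 26.1, log2 0.83, adjusted p = 0.014) and Rnf139, a ubiquitin ligase of the endoplasmic reticulum (log2 0.76, adjusted p = 0.042). Insig2, the second anchor of SCAP, was at -0.15 (adjusted p = 0.70). In double-deficient against p53-deficient intestines Mbtps2 was again called higher (261 ± 44.9 and 555 ± 53.5, log2 1.10, adjusted p = 0.020), and Erlin1, a membrane protein that binds cholesterol, lower (log2 -1.44, adjusted p = 0.017). Averaged over p53 status, Scap, Mbtps2 and Srebf1 were higher and Erlin1 lower.

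Several genes of sterol efflux fell, and of the genes of uptake, transport and storage Npc1l1 and Lipa fell. Npc1l1, the brush-border sterol importer, had signals of 2278 ± 732 (control), 783 ± 154 (Apc-deficient), 3780 ± 1063 (p53-deficient) and 852 ± 89.4 (double-deficient). It fell by log2 1.51 with p53 present (adjusted p = 0.0055), and in double-deficient against p53-deficient intestines the log2 difference was -2.12 (adjusted p = 0.0036). Lipa, the lysosomal lipase, had log2 -1.60 (adjusted p = 0.0049) and -1.22 (adjusted p = 0.032) in these comparisons. Of the 8 genes of uptake, transport and storage, 1 was called higher (Stard3, log2 0.58, adjusted p = 0.033) and 2 lower with p53 present, against 18.8% and 12.1% of all genes. Without p53, 1 was higher (Npc1, log2 0.89, adjusted p = 0.034) and 2 lower, against 4.83% and 6.46%. Of the 8 differences, 4 were positive and 4 negative with p53, and 1 was positive and 7 negative without it. Of 6 genes of sterol efflux, 4 were called lower with p53 present (12.1% of all genes), namely Abcg5 and Abcg8, which together return sterols to the gut lumen, Abcg1 and Nr1h3, the gene of the sterol sensor LXRα. Abcg8 had signals of 640.5 ± 123 (control), 224 ± 10.7 (Apc-deficient), 759 ± 394 (p53-deficient) and 229 ± 57.2 (double-deficient), with log2 -1.50 (adjusted p = 0.012) and -1.62 (adjusted p = 0.018) for Apc loss with and without p53. For Abcg5 these differences were -2.25 (adjusted p = 0.0075) and -3.19 (adjusted p = 0.0045). Without p53, 2 of the 6 were called lower, Abcg5 and Abcg8, against 6.46% of all genes. The 9 enterocyte markers moved the same way, with 3 called lower with p53 and 7 without it. For these and the following marker counts, 12.1% of all genes were called lower with p53 and 6.46% without it. The shares called higher were 18.8% and 4.83%. Lymphocyte markers were lower too (median log2 signal 7.78 to 8.56 in control and 6.26 to 6.61 in Apc-deficient intestines, 3 of 6 called with p53 and 1 without it). Of 8 markers of the proximal small intestine, 2 of them also enterocyte markers, 3 were called lower and 1 higher in both comparisons, and of 6 of the ileum 2 were called lower in both. The enterocyte, lymphocyte and regional markers were not tested for their part in these differences.

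Of 11 genes of fatty acid synthesis, 5 were called higher and 1 lower with p53 present, against 18.8% and 12.1% of all genes. Fasn, fatty acid synthase, rose to 1353 ± 243 from a control level of 613 ± 188 (log2 1.18, adjusted p = 0.020), and Acly to 2156 ± 272 from 1065 ± 185 (log2 1.02, adjusted p = 0.0072). Acaca, Fads1 and Acss2 were higher by log2 1.05, 0.93 and 0.92. Scd1, a desaturase, was lower (log2 -2.10, adjusted p = 0.011) but was detected on only 1 array. Without p53, 0 of the 11 were called higher and 1 lower, Elovl6, a fatty acid elongase (log2 -1.28, adjusted p = 0.0095). The interaction called 0 of the 48 related genes and 0 of all 15129 genes. Of the 48, 11 had an unadjusted p under 0.05, against 2378 of the 15129.

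**Figure D4:**
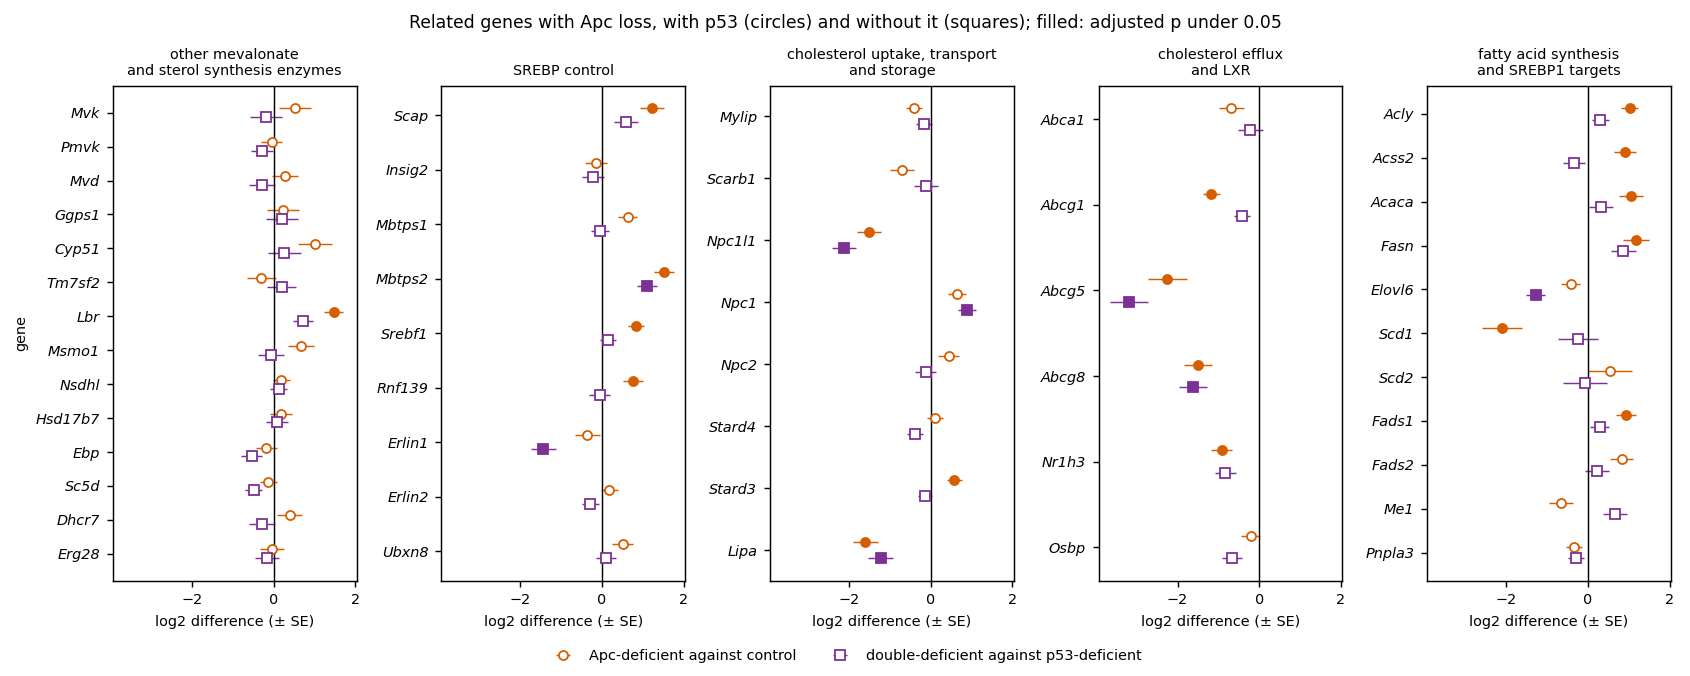
Log2 difference (x axis, with SE) of 48 related genes in 5 lists (y axis) for Apc loss with p53 (circles, Apc-deficient against control) and without it (squares, double-deficient against p53-deficient). Filled symbols have an adjusted p under 0.05. Npc1l1, Abcg5, Abcg8 and Lipa are filled left of 0 in both, and Mbtps2 is filled right of 0 in both.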

How the data were processed

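The members and gene lists were chosen with earlier results of these data known. For each of 12 arrays (1 mouse each), the authors deposited a signal (linear intensity, before normalisation) and a detection p-value for each probe set; the sources used here name no expression software. A second deposited table holds scores for 34271 probe sets (log signal centred and divided by the array's standard deviation), used as an alternative. Detection columns of the 3 double-deficient arrays name the genotype but no mouse, so detection is given as a number of arrays in a genotype. Another 12 columns, of detection calls, were not used.

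After removal of 64 AFFX controls, 36336 probe sets had 1 or more arrays with a detection p below 0.2 and were tested. Signals below 1 (895 values) were raised to 1, and the log2 values of an array were centred on their mean, after the authors' global geometric mean. A limma 3.58.1 fit in R 4.3.3 estimated the 4 genotype means with 8 residual degrees of freedom, with Benjamini-Hochberg adjustment over all probe sets. The methods name SAM, and limma was used in its place. A bound for a group undetected throughout raises its signals to the lowest signal detected on all its arrays. The replicates are separate mice.

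The probe table gave 27536 probe sets 1 symbol, 754 several and 8046 none, for 15129 genes. A further 2 probe sets whose older description names Sqle are assigned to another gene by that table and were left out. All 8 members, the related genes that passed the test or bear on them, and the 10 most alike genes were named. The fit was tested on simulated data. Alternatives were quantile normalisation, the deposited table, no scaling, other screens (none, a detection p below 0.05 on 3 or more arrays, or, added after the data were seen, without the double-deficient detection columns), a floor of 20 for signals, a variance trend, fits of only the compared genotypes, the median of the probe sets of a gene, and leaving out arrays. The number of arrays limits the precision.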

Additional observations from a re-analysis of the deposited data

Results flagged for a closer look

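Hmgcs1 differed in the direction of both effects. For its probe set 1433443_a_at, Apc loss with p53 present gave a log2 difference of 0.92 (Apc-deficient against control) and Apc loss without p53 gave -0.72 (double-deficient against p53-deficient), and in each case all arrays of one genotype lay on one side of all arrays of the other. Read the other way, p53 loss gave 0.75 with Apc present (p53-deficient against control) and -0.89 without it (double-deficient against Apc-deficient), again without overlap. Opposite signs without overlap were the rule by which probe sets were flagged, so the lack of overlap is no further support. The test of the difference, the interaction term, was -1.64 and did not pass after adjustment over all probe sets (limma, adjusted p = 0.15). A second probe set of the gene, 1433446_at, which was designed on the same sequence accession, showed 0.75 for Apc loss with p53 present and -0.60 without it, with an interaction of -1.35 (adjusted p = 0.24). It overlapped in p53-deficient against control. The well detected 1433444_at and 1433445_x_at overlapped in double-deficient against p53-deficient intestines (log2 -0.64 and -0.53) and were not flagged. GAP901, the p53-deficient array on which all 8 genes, by 1 probe set each, had the highest scaled signal of that genotype, enters these values.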

How the results depend on the processing

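For Apc-deficient against control, the 6 probe sets called became 3 after quantile normalisation, 1 in the authors' normalised table, 1 (lower) without scaling, 1 with only the compared genotypes in the fit, 0 without d5wt_474u and gap429, and 0 to 9 when each array was left out (0 without d5wt_110u, 1 without d5wt_474u, 3 without D5fl_131u). For double-deficient against p53-deficient, 0 became 2 after quantile normalisation, 2 in the authors' table, 3 with detection p under 0.05 on at least 3 arrays, 2 with signals under 20 set to 20 and 2 with a variance trend, all lower, and 0 to 1 when each array was left out (1 without D5fl_444t). Of all probe sets, 9.07% were called, higher or lower, in the main fit. The share was 10.7%, 11.8%, 18.2%, 12.5% and 12.5% in these settings in turn, and 9.93% without D5fl_444t. Without scaling, p53-deficient against control and the interaction went from 0 to 1 each, where 6.56% and 12.2% of all probe sets were called. For Apc loss averaged over p53 status, 3 (all higher) became 1 (lower) without scaling, 6 with a variance trend (5 higher, 1 lower), 0 without d5wt_474u and gap429, and 6 without d5wt_323u and GAP901 (added after the data were seen), and 1 to 4 when each array was left out. The count of 3 held after quantile normalisation and in the authors' table as 2 higher and 1 lower, and 4 were called (3 higher, 1 lower) with the stricter detection screen and with the floor of 20. For this averaged comparison the shares of all probe sets called in the alternative settings are not given here. The counts for double-deficient against control and against Apc-deficient stayed at 0 when each array was left out.

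The sign turned for some single values. Fdps in Apc-deficient against control was -0.31 after quantile normalisation, -0.36 in the authors' table, -0.60 without scaling, -0.10 with the stricter detection screen and -0.042 with signals under 20 set to 20, and ran from -0.29 to 0.39 when each array was left out. Insig1 in that comparison was 0.054 with no screen and 0.046 without d5wt_323u and GAP901, and ran from -0.26 to 0.15 over single arrays. Without scaling, Fdft1 1448130_at there was -0.13 and Srebf2 1452174_at -0.051. In double-deficient against Apc-deficient, Srebf2 1452174_at was 0.021 after quantile normalisation and 0.25 without scaling, and Fdps ran from -0.26 to 0.34 over single arrays. Lss averaged over p53 status was -0.22 as the median of its probe sets. The cause was not tested. Hmgcs1 1433443_a_at kept its sign in all 24 alternatives for Apc-deficient against control and was called in 15, Idi1 1451122_at was called in 17 and Lss 1426913_at in 18. The median over probe sets, 1 of the 24, has no test, so only 23 could be called. Some of the 23 left out only arrays of the other genotypes, which enter this comparison through the shared variance alone. Screening without the double-deficient detection columns (added after the data were seen) left the counts of called probe sets as they were in all 8 comparisons. No paired analysis was possible because the labels give no replicate numbers shared between genotypes.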
